A study of Mus musculus with 6 samples.

Results

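The 10 genes described here encode receptor chains for the alarmin cytokines of the interleukin-1 (IL-1) family and for cytokines of the IL-6, IL-4, IL-10, IL-21 and IL-27 systems, as measured in regulatory T cells (Treg). They were taken by gene name from a table of 29199 genes: Il1r1, Il1r2, Il1rl1 and Il18r1 of the IL-1 receptor family, Il6ra, Il6st and Il27ra of the IL-6 and IL-27 receptors, and Il4ra, Il21r and Il10ra. Each name matched 1 row, and all 10 genes were among the 18321 that passed the filter on low counts and were tested.

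Total RNA was sequenced from Treg sorted from the spleen of transplanted mice, in 2 groups of 3 libraries, Treg with WT Tconv (replicates 1 to 3, called WT1, WT2 and WT3) and Treg with HP1a KO Tconv (KO1, KO2 and KO3). In both groups the hosts were irradiated C57BL/6 mice, which the methods give as C57BL/6J or congenic CD45.1+ B6 animals without saying which served here, and received C57BL/6 and B6D2F1 bone marrow in equal parts together with naive conventional CD4+ T cells (Tconv) and Treg. The Tconv came from sex-matched young adult littermates of a mixed 129/Sv and C57BL/6 background and were either WT or lacked HP1α, a heterochromatin protein encoded by Cbx5, through a deletion driven by a CMV-cre transgene that acts in every tissue of the donor. The Treg were WT in both groups. They came from B6 Foxp3-Thy1.1 reporter mice, had been expanded in culture with anti-CD3/CD28 beads, 500 IU/mL IL-2 and 0.1 ng/mL TGFb, and were recovered 3 weeks after the graft as Thy1.1+ CD4+ cells without CD45.1, so the receptor transcripts are those of cultured and transferred cells. The comparison therefore addresses how the genotype of the neighbouring Tconv bears on WT Treg. The labels do not say that the libraries came from separate mice, so p-values measure the spread between these libraries, which may be technical.

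The libraries held 87421755 to 119078882 estimated counts. The summed level of 6 Treg markers was 3802 to 4577 CPM (counts per 1000000; over the plain library total for cell type markers, over the TMM-scaled total for all other genes) and Foxp3 itself was at 158 to 254 CPM, so the labelled cell type was present in every library. WT3 stood apart: 10 neutrophil markers summed to 1861 CPM there against 42.9 to 235 CPM in the other 5 libraries, and 8 erythroid markers to 5594 CPM against 373 to 693 CPM. The differences of Il1r2, Il10ra and Il27ra are therefore also given without this library. The share of these transcripts that came from cells other than Treg was not tested. KO2 stood apart within its group: a chi-square of counts between libraries, per degree of freedom, was 140 against KO1 and 174 against KO3. It was 29.0 between KO1 and KO3, 113.5 and 121 for WT3 against WT1 and WT2, and 21.3 between WT1 and WT2. KO2 had the lowest Foxp3, Il2ra, Cd3e and Cd4 of its group but the highest Ikzf2 and Ctla4. Why KO2 differed was not tested. The sum of 8 stromal or endothelial markers did not overlap between the groups. Nearly all of the sum was Pecam1, since each other marker was at 0.903 CPM or less in every library, so the sum describes that gene. It was 67.1 to 77.5 CPM with WT Tconv and 82.2 to 90.5 CPM with HP1a KO Tconv, and the source of this difference was not tested.

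Alarmins are cytokines such as IL-33, IL-1 and IL-18 that signal tissue damage or inflammation. Their receptors pair a ligand-binding chain with an accessory chain, and signal through MyD88 to NF-κB. ST2, the IL-33 receptor encoded by Il1rl1, marks tissue-type and effector Treg, whereas IL-1R2, encoded by Il1r2, is a decoy that binds IL-1 without signalling and is known on activated Treg. The receptors of the IL-6, IL-4, IL-10, IL-21 and IL-27 systems signal instead through JAK kinases and STAT transcription factors, each through a private chain and a shared one: the signal-transducing chain Il6st serves IL-6 and IL-27, the common gamma chain Il2rg serves IL-4 and IL-21, and Il10rb serves IL-10.

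Of the 10 receptors, Il1r2 differed most between the groups: it was lower in Treg with HP1a KO Tconv, whereas Il10ra and Il27ra were modestly higher. For the other 7 genes the 95% interval of the fold change included no difference. None of the 10 passed an adjusted p of 0.05 in the quasi-likelihood test of edgeR, in which 0 of the 18321 genes tested did (0%). At an unadjusted p under 0.05 there were 3 of the 10, namely Il1r2, Il10ra and Il27ra, against 14.5% of all genes tested. Of these, 1 was lower with HP1a KO Tconv, against 7.52% of all genes, and 2 were higher, against 6.98%. The same 3 genes were the ones whose levels did not overlap between the 3 libraries of one group and the 3 of the other, as was so for 23.0% of all genes. With DESeq2, the tool of the study, 2 of the 10 had an adjusted p under 0.05 (Il1r2 and Il10ra), against 4.35% of 12097 genes, and 0 of the 10 also had an absolute log2 fold change over 1, against 0.132%. With so few members these counts were not read as a property of the receptors as a set.

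**Figure D1:**
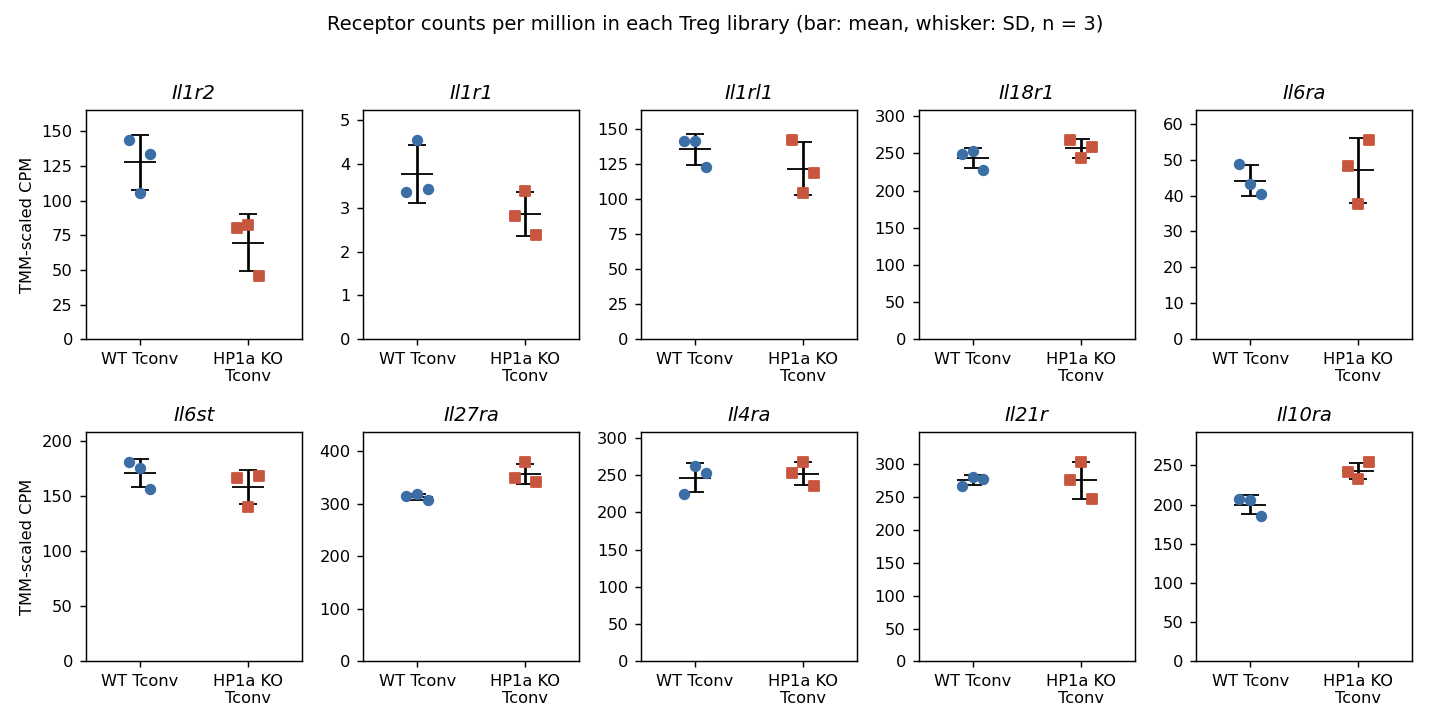
TMM-scaled CPM (vertical axis, from 0) of each of the 10 receptor genes in WT1 to WT3 (blue circles) and KO1 to KO3 (red squares); horizontal bars are means and whiskers SD. The groups are separate for Il1r2, Il27ra and Il10ra and overlap for the other 7 genes.

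Il1r2, the decoy receptor of IL-1, was measured at 144, 106 and 134 CPM in WT1, WT2 and WT3 and at 80.0, 82.7 and 45.8 CPM in KO1, KO2 and KO3. All 3 libraries with HP1a KO Tconv lay below all 3 with WT Tconv, and KO3 was the lowest of the 6. Group means were 128 ± 19.7 CPM with WT Tconv against 69.5 ± 20.6 CPM with HP1a KO Tconv (SD, n = 3 each), a fitted ratio of 0.545 (95% interval, 0.346 to 0.858). The log2 fold change was -0.88 (SE 0.261, 95% interval -1.53 to -0.22), with an unadjusted p of 0.0178 and an adjusted p of 0.254 in edgeR, and an adjusted p of 0.000816 in DESeq2. In bulk RNA, fewer Il1r2-expressing cells and less transcript per cell cannot be told apart.

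The Il1r2 difference kept its direction in every alternative fit, from -0.65 when KO3 was left out to -1.02 when KO2 was. The DESeq2 call rested on single libraries: the adjusted p was 0.0735 without WT1 and 0.223 without WT3, while it lay between 0.00317 and 0.0301 without any 1 of the other 4 libraries. Neutrophils are another source of Il1r2, so the neutrophil markers are given beside it: their sum ranged from 42.9 to 1861 CPM with WT Tconv and from 81.3 to 235 CPM with HP1a KO Tconv. The library with the highest neutrophil sum, WT3, had an Il1r2 level between those of the other 2 libraries of its group, and without it the log2 fold change was -0.84 (unadjusted p of 0.0372 and adjusted p of 0.422 in edgeR). KO3 had the highest neutrophil sum of its group and the lowest Il1r2 level, whereas WT2 had the lowest neutrophil sum of its group and also the lowest Il1r2 level. The share of Il1r2 transcript that came from neutrophils was not tested.

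**Figure D2:**
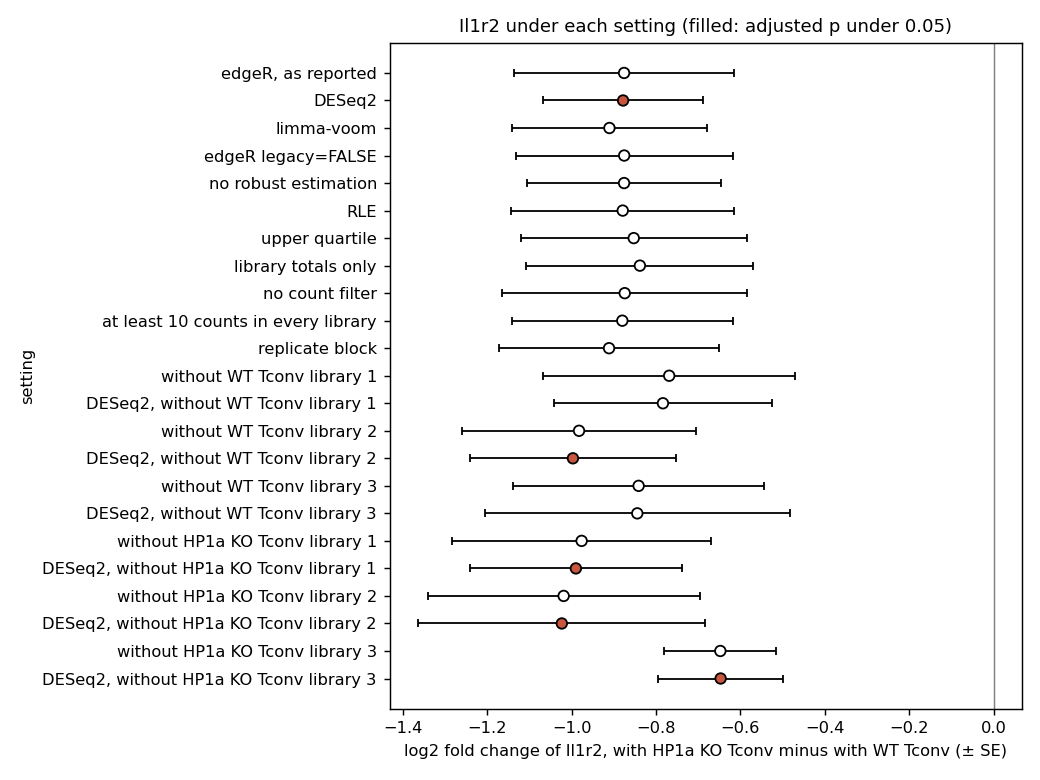
Log2 fold change of Il1r2 (horizontal axis, Treg with HP1a KO Tconv minus Treg with WT Tconv, with SE) under each test, normalization, filter and set of libraries (vertical axis); filled points have an adjusted p under 0.05. All points lie below 0, between -0.65 and -1.02, and only fits with DESeq2 give filled points.

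Il1r2 lies on chromosome 1 of the GRCm39 assembly (chr1:40113239-40164391, plus strand) at the head of a cluster that holds all 4 IL-1 family receptors described here on the same strand. Il1r1 follows after 99.8 kb (chr1:40264174-40356417), Il1rl1 after a further 112.3 kb with 1 other protein-coding gene, Il1rl2, between them (chr1:40468730-40504575), and Il18r1 (chr1:40504712-40540014) after only 136 bases. Differences among the 4 neighbours were not tested: the log2 fold change was -0.88 for Il1r2, -0.40 for Il1r1, -0.15 for Il1rl1 and 0.08 for Il18r1. The 250 bases before the annotated start of the canonical transcripts of Il1r2 and Il1rl1 are shown because these are the decoy with the largest difference and the receptor of IL-33, and because these windows hold no annotated exon. Both windows lie inside the annotated gene, downstream of its first base, because other annotated transcripts start further upstream. Il1r2 has 9 annotated transcripts and Il1rl1 has 5. Which start the Treg used was not tested. Capitals mark matches to 5 short motifs searched on both strands, and the sequences were read from the GRCm39 genome.
Il1r2 (chr1:40123608-40123857, plus strand): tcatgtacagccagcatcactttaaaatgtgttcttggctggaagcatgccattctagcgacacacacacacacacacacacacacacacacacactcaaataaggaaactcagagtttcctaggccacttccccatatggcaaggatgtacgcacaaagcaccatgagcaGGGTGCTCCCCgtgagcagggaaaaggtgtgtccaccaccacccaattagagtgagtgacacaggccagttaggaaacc
Il1rl1 (chr1:40478537-40478786, plus strand): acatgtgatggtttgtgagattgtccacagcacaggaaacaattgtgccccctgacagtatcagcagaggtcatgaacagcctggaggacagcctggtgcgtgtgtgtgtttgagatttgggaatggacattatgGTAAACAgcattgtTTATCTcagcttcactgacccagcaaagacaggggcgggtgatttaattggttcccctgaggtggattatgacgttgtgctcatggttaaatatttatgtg

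The Il1r2 window held 2 overlapping matches to the κB pattern GGGNNNNNCC, which begin 79 and 78 bases before the start. That pattern is so short that 52.7% of 16922 promoter windows of the same length held it. The Il1rl1 window held a GATA match (AGATAA, read on the opposite strand as TTATCT) that begins 101 bases before the start and a forkhead match (TGTTTAC, read on the opposite strand as GTAAACA) that begins 115 bases before it, found in 8.1% and 2.5% of the windows. Neither window held the STAT pattern TTCNNNGAA, present in 6.9% of windows, or the AP-1 pattern TGANTCA, present in 5.1%. A match to such letters is a description of the sequence and not evidence of binding in these cells.

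Il1r1, the signalling receptor of IL-1, was the lowest of the 10 genes, at 3.37, 4.55 and 3.42 CPM with WT Tconv and 2.82, 3.38 and 2.38 CPM with HP1a KO Tconv. The groups overlapped, since the highest library with HP1a KO Tconv reached the lowest with WT Tconv. The log2 fold change was -0.40 (SE 0.196, 95% interval -0.85 to 0.05), with an adjusted p of 0.397 in edgeR. It was -0.54 without KO2 (unadjusted p of 0.0327, adjusted p of 0.263 in edgeR) and -0.23 without WT2. The values rest on 210 to 439 counts per library. Per kilobase of exon, Il1r2 exceeded Il1r1 by 94.5 ± 27.9 times (SD, n = 3) with WT Tconv and 65.0 ± 12.4 times (SD, n = 3) with HP1a KO Tconv, so the decoy outnumbered the signalling chain in all 6 libraries, by 52.0 to 115 times. With the longest transcripts in place of merged exons this range was 66.8 to 148 times.

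Il1rl1, which encodes ST2, was at 142, 142 and 123 CPM with WT Tconv and 142, 104 and 119 CPM with HP1a KO Tconv. KO1 reached the level of the highest WT libraries, and the groups overlapped. The log2 fold change was -0.15 (SE 0.118, 95% interval -0.43 to 0.12), with an adjusted p of 0.587 in edgeR, which leaves room for a level down to 0.744 or up to 1.09 of that with WT Tconv. It was -0.27 without KO1 (unadjusted p of 0.0351, adjusted p of 0.366 in edgeR) and -0.05 without KO2. Gene counts do not separate the membrane form of ST2 from its soluble form, which arise from the same gene. Mast cells and basophils also express Il1rl1. Their 8 markers summed to 4.73 to 30.1 CPM with WT Tconv and 2.90 to 8.04 CPM with HP1a KO Tconv, with no counts for Tpsb2, and the library highest for them, WT3, had the lowest Il1rl1 level of its group. The share of Il1rl1 transcript that came from these cells was not tested.

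Il18r1, the ligand-binding chain of the IL-18 receptor, was at 249, 253 and 228 CPM with WT Tconv and 268, 243 and 259 CPM with HP1a KO Tconv. The groups overlapped, and the log2 fold change of 0.08 (SE 0.0713, 95% interval -0.09 to 0.24) had an adjusted p of 0.651 in edgeR. Its partner chain Il18rap was at 101 to 109 CPM in all 6 libraries, with a log2 fold change of 0.03 (adjusted p of 0.833 in edgeR). Il1rap, the accessory chain shared by the receptors of IL-1 and IL-33, was at 17.9 to 23.9 CPM, with a log2 fold change of 0.02 (adjusted p of 0.943 in edgeR) whose sign turned when WT3 or KO3 was left out. Per kilobase, Il1rap stood at 0.0655 to 0.0908 of the Il1rl1 level and Il18rap at 0.288 to 0.326 of the Il18r1 level, so in these pairs the accessory chain was the scarcer one in every library. Against the scarce Il1r1 it ran the other way, with Il1rap at 2.02 to 4.48 times the Il1r1 level (3.15 to 6.99 times with the longest transcripts in place of merged exons).

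In the IL-6 and IL-27 system, the shared chain Il6st was at 181, 176 and 157 CPM with WT Tconv and 166, 140 and 168 CPM with HP1a KO Tconv. Il6ra, the IL-6-binding chain, was at 48.9, 43.1 and 40.5 CPM with WT Tconv and 48.1, 37.5 and 55.5 CPM with HP1a KO Tconv. For both genes the groups overlapped, and for Il6ra both the lowest and the highest library were of Treg with HP1a KO Tconv. The log2 fold change was -0.11 for Il6st (95% interval -0.32 to 0.10, adjusted p of 0.606 in edgeR) and 0.09 for Il6ra (95% interval -0.25 to 0.43, adjusted p of 0.807 in edgeR). The fold change of Il6ra turned to -0.04 without KO3. Per kilobase, Il6st exceeded Il6ra by 2.21 ± 0.110 times (SD, n = 3) with WT Tconv and 1.94 ± 0.205 times (SD, n = 3) with HP1a KO Tconv, ranges that overlapped. With the longest transcripts in place of merged exons the ratios were 3.78 and 3.32.

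Il27ra, the IL-27-binding chain that pairs with Il6st, was at 314, 319 and 307 CPM with WT Tconv and 350, 379 and 341 CPM with HP1a KO Tconv. The groups did not overlap, and KO2 was the highest. The log2 fold change was 0.19 (SE 0.0673, 95% interval 0.03 to 0.34), a ratio of 1.14, with an unadjusted p of 0.0234 and an adjusted p of 0.272 in edgeR and an adjusted p of 0.211 in DESeq2. Without WT3 it was 0.17, with an unadjusted p of 0.0672 in edgeR.

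Il10ra, the ligand-binding chain of the IL-10 receptor, was at 207, 206 and 186 CPM with WT Tconv and 241, 233 and 254 CPM with HP1a KO Tconv. Every library with HP1a KO Tconv lay above every library with WT Tconv. The log2 fold change was 0.28 (SE 0.0713, 95% interval 0.12 to 0.44), a ratio of 1.22, with an unadjusted p of 0.00403 and an adjusted p of 0.209 in edgeR, and it was 0.23 without WT3 (adjusted p of 0.386 in edgeR). The adjusted p was 0.0449 in DESeq2, and there it stayed under 0.05 without KO2 (0.00187) but lay between 0.0645 and 0.157 without any 1 of the other 5 libraries.

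The partner chain Il10rb was at 56.7, 61.6 and 53.4 CPM with WT Tconv and 68.6, 71.7 and 70.9 CPM with HP1a KO Tconv, again without overlap. Its log2 fold change was 0.30 (SE 0.0727, 95% interval 0.13 to 0.47), with an adjusted p of 0.209 in edgeR and 0.043 in DESeq2. Both chains of the IL-10 receptor were thus higher with HP1a KO Tconv by a like amount, and the ratio of Il10rb to Il10ra per kilobase was 0.204 ± 0.00883 (SD, n = 3) with WT Tconv and 0.207 ± 0.0110 (SD, n = 3) with HP1a KO Tconv. The transcript of the ligand differed the other way: Il10, a suppressive cytokine that Treg make themselves, was at 174, 205 and 174 CPM with WT Tconv and 143, 144 and 97.1 CPM with HP1a KO Tconv. Its log2 fold change was -0.52 (SE 0.163), with an adjusted p of 0.246 in edgeR and 0.018 in DESeq2. The DESeq2 calls of Il10, Il10ra and Il10rb were all lost without WT1 and likewise without WT3.

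Il4ra and Il21r, which bind IL-4 and IL-21 and share the common gamma chain, lie next to each other on chromosome 7, 19.8 kb apart (chr7:125151079-125182844 and chr7:125202601-125232756, plus strand). Il4ra was at 225, 262 and 253 CPM with WT Tconv and 253, 267 and 236 CPM with HP1a KO Tconv. Il21r was at 266, 281 and 278 CPM with WT Tconv and 276, 303 and 247 CPM with HP1a KO Tconv. Both pairs of groups overlapped and their log2 fold changes were 0.03 (95% interval -0.16 to 0.22) and 0.00 (95% interval -0.19 to 0.19), with adjusted p-values of 0.884 and 0.998 in edgeR. These intervals leave room for a ratio of 0.898 to 1.16 for Il4ra and 0.876 to 1.14 for Il21r. Il2rg was at 453 to 534 CPM, with a log2 fold change of 0.04 (adjusted p of 0.842 in edgeR) that turned negative without WT3.

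**Figure D3:**
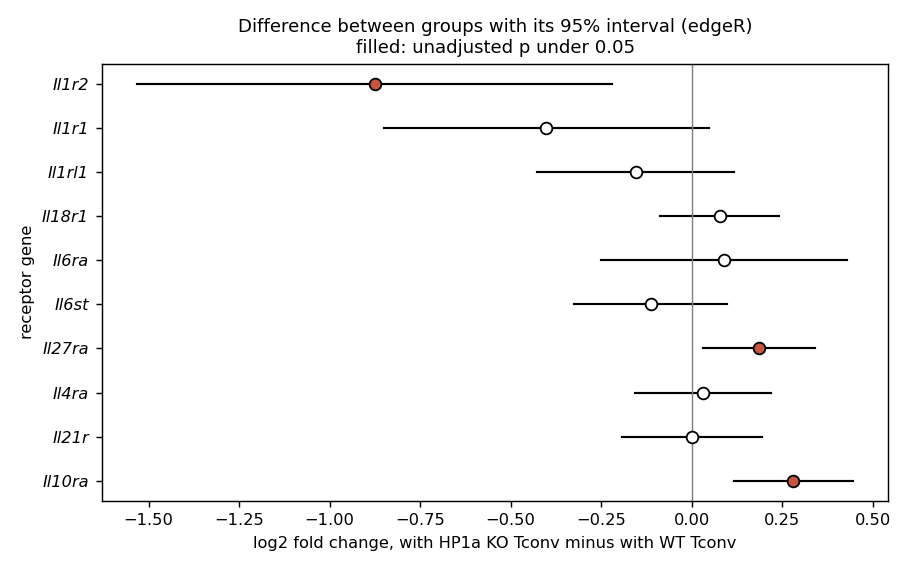
Log2 fold change of each receptor (horizontal axis, Treg with HP1a KO Tconv minus Treg with WT Tconv) with its 95% interval from edgeR, 3 libraries per group. The interval lies below 0 for Il1r2, above 0 for Il10ra and Il27ra (filled points) and spans 0 for the other 7 receptors.

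On the scale of CPM per kilobase of merged exons, on which levels of different genes can be compared, Il21r (81.1 ± 5.39, SD over 6 libraries) and Il27ra (80.7 ± 6.53) were the highest of the 10 and lay at the 97.2 percentile of protein-coding genes tested. Il18r1 (50.7 ± 2.78) and Il10ra (50.6 ± 5.86) followed, then Il1r2 (39.1 ± 14.5), Il4ra (25.0 ± 1.60), Il1rl1 (18.7 ± 2.29), Il6st (10.6 ± 0.935) and Il6ra (5.15 ± 0.735), and Il1r1 (0.487 ± 0.107) was the lowest, at the 20.9 percentile. Over all 6 libraries the ranges of Il21r and Il27ra overlapped, as did those of Il18r1, Il10ra, Il1r2 and Il4ra, each with the next. Within a group some of these neighbours were apart: with WT Tconv, Il21r (78.6 to 82.8) lay above Il27ra (74.0 to 76.8) and Il1r2 (41.8 to 56.9) above Il4ra (22.6 to 26.2), and with HP1a KO Tconv, Il10ra (53.3 to 58.1) lay above Il1r2 (18.2 to 32.8). From Il4ra downward no library of one gene reached the range of the next. Il21r and Il27ra, and Il18r1 and Il10ra, exchange places when the longest transcript replaces the merged exons. Il1r2 was the most variable of the 10, with a 3.14-fold range over the 6 libraries, and took a different place by group, with 50.6 ± 7.82 (SD, n = 3) with WT Tconv and 27.6 ± 8.16 (SD, n = 3) with HP1a KO Tconv.

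**Figure D4:**
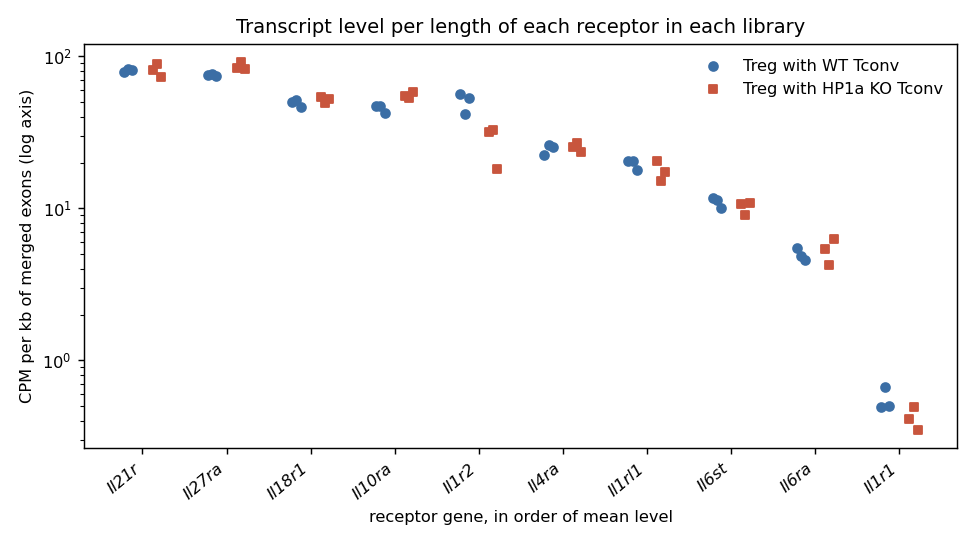
CPM per kilobase of merged exons (vertical log axis) of the 10 receptors in order of mean level, in WT1 to WT3 (blue circles) and KO1 to KO3 (red squares). Mean levels run from 81.1 for Il21r to 0.487 for Il1r1, and Il1r2 lies at 41.8 to 56.9 with WT Tconv and 18.2 to 32.8 with HP1a KO Tconv.

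The genes around the receptors were examined in 5 lists, of which 74 of 77 genes were tested, and Il33, Il1a and Il27 were not, having at most 38 counts in any library. In edgeR 0 of the 74 had an adjusted p under 0.05. At an unadjusted p under 0.05 there were 6 higher and 11 lower, against 6.98% and 7.52% of all genes tested, and 8 passed an adjusted p of 0.05 in DESeq2, against 4.35%. Of 17 accessory chains and related receptors, 3 were higher and 1 lower at an unadjusted p under 0.05 (6.98% and 7.52% of all genes), with a median log2 fold change of -0.02 against -0.01 over all genes. Beside Il10rb, these were the inhibitory IL-1 family receptor Sigirr, at 96.9 to 107 CPM with WT Tconv and 113 to 125 CPM with HP1a KO Tconv (log2 fold change 0.21, adjusted p of 0.26 in edgeR), Il12rb1, a chain of the IL-12 and IL-23 receptors, at 81.8 to 94.2 and 98.4 to 118 CPM (log2 fold change 0.26, adjusted p of 0.27 in edgeR, and 0.17 without KO2), and the low-level oncostatin M receptor chain Osmr (log2 fold change -0.88, adjusted p of 0.296 in edgeR, at under 1 CPM in all 6 libraries).

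Of 13 tested ligands and soluble inhibitors, 1 was higher and 2 lower at an unadjusted p under 0.05, where 6.98% and 7.52% of all genes were. The higher one was Osm, an IL-6 family cytokine, at 18.2, 18.7 and 19.8 CPM with WT Tconv and 23.9, 24.2 and 24.3 CPM with HP1a KO Tconv (log2 fold change 0.35, SE 0.0751, adjusted p of 0.209 in edgeR and 0.0229 in DESeq2). The lower ones were Il10, given above, and Il21, the ligand of Il21r, at 5.31 to 7.98 CPM and 2.08 to 4.91 CPM (log2 fold change -0.97, adjusted p of 0.274 in edgeR and 0.0232 in DESeq2, where the call was lost without any 1 library other than KO2). Osm libraries were tightly grouped and did not overlap between groups.

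Of 12 genes on the route from MyD88 to NF-κB, 1 was higher and 2 lower at an unadjusted p under 0.05, again beside 6.98% and 7.52% of all genes. Tab1, an adaptor of the kinase TAK1, was at 16.2 to 17.4 CPM with WT Tconv and 21.4 to 22.1 CPM with HP1a KO Tconv (log2 fold change 0.39, adjusted p of 0.209 in edgeR and 0.0124 in DESeq2). Traf6, the ubiquitin ligase downstream of the IL-1 family receptors, was at 250.5 to 271 and 182 to 224 CPM (log2 fold change -0.35, adjusted p of 0.209 in edgeR and 0.0296 in DESeq2), and Tnfaip3, a negative regulator of NF-κB, was lower on the log2 scale by the same amount (-0.35, adjusted p of 0.291 in edgeR, and -0.22 without KO3). Of 19 genes in the list of JAK-STAT signalling and feedback, 1 was higher and 2 lower at an unadjusted p under 0.05 (6.98% and 7.52% of all genes), and 0 passed in DESeq2 (4.35% of all genes). That list also holds the proteases Adam10 and Adam17, which are not themselves JAK-STAT genes. The counts depended on single libraries. There were 0 higher and 0 lower without WT1 (5.18% and 5.45% of all genes) or KO1 (6.51% and 6.04%), and 0 and 3 without KO2 (7.51% and 8.92%). The counts were 1 and 0 without WT2 (5.80% and 5.18%), 0 and 1 without WT3 (5.52% and 5.72%), and 2 and 2 without KO3 (5.08% and 5.29%). The 3 genes were Stat4, which transduces IL-12 signals (log2 fold change 0.20, adjusted p of 0.324 in edgeR), Adam10, a protease that sheds receptors including IL-6R (log2 fold change -0.20, adjusted p of 0.263 in edgeR), and the phosphatase Ptpn11 (log2 fold change -0.17, adjusted p of 0.33 in edgeR). In the other 3 lists above, the lower genes numbered 0 to 3 accessory chains, 1 to 4 ligands and 1 to 4 genes of the MyD88 route when 1 library was left out, each at its highest without KO2, where 8.92% of all genes were lower, and each at its lowest without KO1, among others, where 6.04% were.

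Of 15 genes known to accompany ST2 in effector Treg, 0 were higher and 5 lower at an unadjusted p under 0.05, against 6.98% and 7.52% of all genes tested. These were Rora, Nfil3, Il10, Prdm1 and Tigit. The median log2 fold change of the 15 was -0.21 and 12 were lower, where 51.5% of all genes tested were. The median stayed between -0.16 and -0.26 in every alternative. In edgeR the count of 5 was 3 without WT1 (5.45% of all genes), 2 without WT2 (5.18%) and 4 without KO1 (6.04%). It was 6 without WT3 (5.72%) and 5 without KO2 (8.92%) or KO3 (5.29%). Rora, a nuclear receptor of tissue Treg, was at 401, 380.2 and 363 CPM with WT Tconv and 289, 266 and 238 CPM with HP1a KO Tconv (log2 fold change -0.53, SE 0.0867, adjusted p of 0.209 in edgeR and 0.00013 in DESeq2). Its groups did not overlap, and it was the list gene with the smallest unadjusted p. Nfil3, a transcription factor, had a log2 fold change of -0.63 (adjusted p of 0.249 in edgeR and 0.00801 in DESeq2, the latter lost without WT2 or WT3). Il1rl1 itself was not separated between the groups, as given above. The lists were chosen with earlier results of these data known, so these counts are a description.

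**Figure D5:**
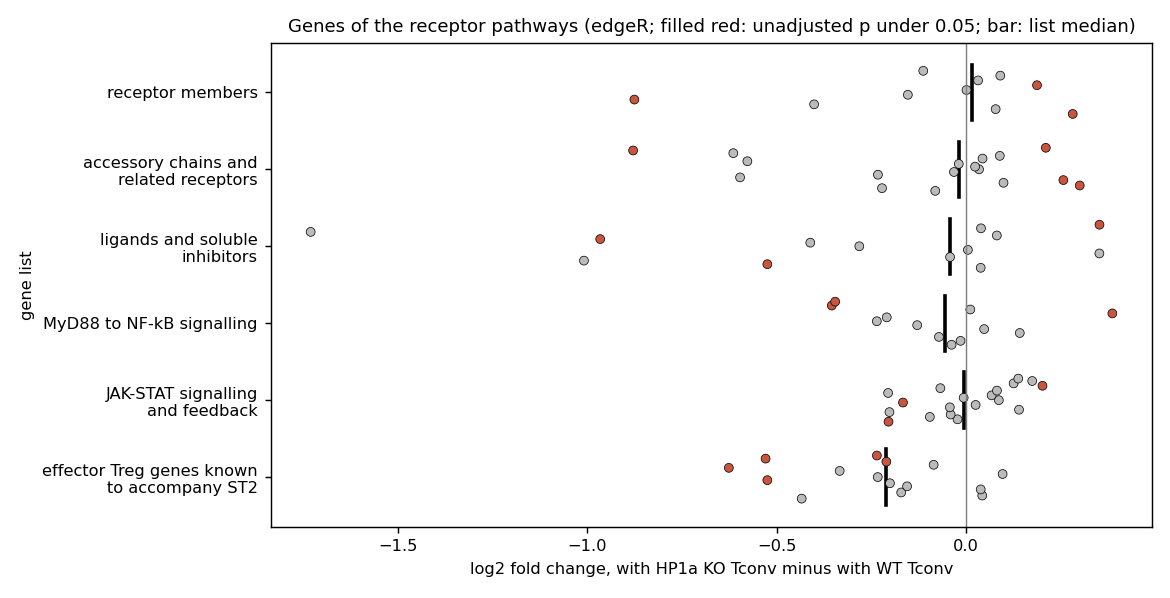
Log2 fold change (horizontal axis, Treg with HP1a KO Tconv minus Treg with WT Tconv) of each tested gene of the receptors and of the 5 lists around them (vertical axis); red points have an unadjusted p under 0.05 in edgeR and bars are list medians. The medians lie near 0 except for the effector Treg genes known to accompany ST2, at -0.21.

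Genes whose log2 CPM ran most like that of the 2 most variable receptors were sought among 13262 genes at 1 CPM or more, over the 6 libraries. Within a library all genes share its preparation and its depth. For Il1r2 these were C9orf72 (Pearson r of 0.995), Dyrk1a (0.991) and Eed (0.99), whose log2 fold changes were -0.55, -0.17 and -0.35, and for Il1r1 they were Mynn (0.994), Atg12 (0.994) and Epm2aip1 (0.993). These correlations are a description of 6 points each.

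The counting could blur a few of the receptors. Il6ra, Il4ra, Il27ra and Il6st share 5.17%, 5.72%, 0.819% and 1.17% of their exonic bases with a gene on the opposite strand. The first 3 of these antisense genes, Gm42809, Gm44876 and Palm3, had 169 to 400, 0 to 1 and 45 to 71 counts per library, against at least 3748 counts for each of the receptors, and the kit marked strand. Il1rl1 shares a repeat-like stretch of up to 3.3% of its transcript with many other transcripts.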

How the data were processed

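Total RNA of 6 Treg libraries was sequenced with a stranded kit. Reads were trimmed, mapped to GRCm39 by STAR and assigned to genes by Salmon, all by the authors. What they deposited are estimated counts, in whole numbers and without normalization, for which a model divides ambiguous reads among genes. Rows lacking a gene symbol held 0.0231% of the counts and were kept.

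The fit covered all genes at once, with edgeR 4.0.16 under R 4.3.3 (quasi-likelihood F-test, TMM, filterByExpr, robust estimation, group only), and p-values were adjusted over 18321 genes by Benjamini-Hochberg. A standard error is the size of the log2 fold change divided by the root of F. CPM use TMM-scaled totals, except those of cell type markers, which use plain totals, and intervals are at 95%. Alternatives were DESeq2 1.42.0, limma-voom (limma 3.58.1), other normalizations and filters, a replicate block, and the omission of single libraries. Omissions under DESeq2 were chosen once the data had been seen. A GENCODE annotation of GRCm39, which matched 28854 of 29199 identifiers, gave positions, exon lengths and promoter windows. The fits were tested on simulated data.

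The receptors and lists were chosen with earlier results of these data known. Named were the receptors, the partner chains Il1rap, Il18rap, Il2rg and Il10rb, the 2 genes of smallest unadjusted p in each of the 5 other lists (those 4 chains not counted), and the 3 genes most correlated with each of the 2 most variable receptors. Nfil3, Prdm1, Tigit, Il21, Osmr, Tnfaip3 and Ptpn11 were named after their values had been seen.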

Additional observations from a re-analysis of the deposited data

How the results depend on the processing

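The count of receptors with an adjusted p under 0.05 was 0 in edgeR under every other normalization, filter, estimation and omitted library and with limma-voom, and it was 2 with DESeq2 and 0 to 2 with DESeq2 when 1 library was left out (1.35% to 11.3% of all genes). The count at an unadjusted p under 0.05 was 3 and lay between 1 and 4 when 1 library was left out, with 1 without WT1 (Il10ra), where 10.4% to 16.4% of all genes did (10.6% without WT1). The count of receptors whose groups did not overlap was 3, where 23.0% of all genes did not, and lay between 3 and 5 when 1 library was left out, where 30.3% to 36.9% of all genes did not (5 receptors and 36.9% without KO2). For the genes of the 5 lists, the count with an adjusted p under 0.05 was 0 in edgeR, 8 with DESeq2, 1 (Rora) without the count filter, where 0.130% of all genes passed. When 1 library was left out, DESeq2 gave 4 without WT1 (2.42% of all genes) or WT2 (2.23%), 3 without WT3 (1.35%), 7 without KO1 (5.02%) or KO3 (2.53%) and 13 without KO2 (11.3%). The order of levels per length kept 6 of 10 places with the longest annotated transcript, and between 6 and 10 places when 1 library was left out. With the longest transcript, a choice added for the ratios after the data had been seen, Il6st over Il6ra moved from 2.08 to 3.55 and Il1rap over Il1r1 from 2.92 to 4.56.

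Log2 fold changes of Il1rl1, Il1r1, Il18r1 and Il6st kept their sign but moved by over 1.5 times when 1 library was left out, to -0.05 and -0.27, -0.23, 0.03 and 0.12, and -0.03 and -0.17. So did Il18rap (0.01 without WT3, 0.08 without WT1), Il12rb1 (0.17 without KO2), Tigit (-0.14 without WT2) and Tnfaip3 (-0.22 without KO3). Log2 fold changes near 0 turned sign. That of Il21r was -0.00188 with DESeq2, -0.00348 with limma-voom, -0.00272 with RLE and -0.00323 with at least 10 counts in every library, and it ranged from -0.0731 to 0.0737 in edgeR when 1 library was left out. Il4ra was -0.0170 without WT1 and -0.0123 without KO2, and with DESeq2 -0.0320 and -0.0170. Il6ra was -0.0445 (DESeq2, -0.0438) without KO3. Il1rap was -0.0130 and -0.0850 without WT3 and KO3 (DESeq2, -0.0177 and -0.0842), and Il2rg was -0.00684 (DESeq2, -0.0112) without WT3 and -0.00521 in DESeq2 without KO1. For Il21r, DESeq2 gave -0.0234, -0.00167 and -0.0777 without WT1 and KO1 and KO2, and edgeR gave -0.00853 and -0.0731 without the first and the last of these. When 1 library was left out, the highest values in edgeR were 0.0885 for Il4ra, 0.230 for Il6ra, 0.122 for Il1rap and 0.105 for Il2rg. The cause was not tested.

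In DESeq2 the call of Il10rb was lost without WT1, WT3 or KO3, and those of Il10 and Traf6 without any 1 of the 3 libraries with WT Tconv. At an unadjusted p under 0.05 the 74 list genes gave 6 higher and 11 lower, and 4 to 7 higher (5.08% to 7.51% of all genes) when 1 library was left out. There were 4 higher and 5 lower without KO1 (6.51% and 6.04% of all genes) and 6 higher and 18 lower without KO2 (7.51% and 8.92%), and 7, 6, 9 and 9 lower without WT1, WT2, WT3 and KO3 (5.45%, 5.18%, 5.72% and 5.29%).

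Deviations among 3 libraries are interdependent, so pairing by replicate number was undecided. They correlated at -0.042, 0.182 and 0.117 for same numbers and -0.218 to 0.121 otherwise. With the replicate block, 0 receptors had an adjusted p under 0.05, 3 had an unadjusted p under 0.05, and the log2 fold change was -0.91 for Il1r2, 0.28 for Il10ra and -0.00368 for Il21r.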
